A study of Brassica napus with 18 samples.

Results

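The genes described here are the A-, B- and D-type cyclins, the B-type cyclin-dependent kinases (CDKB) and the proteins that inhibit cyclin-dependent kinases (CDKs) in Brassica napus. They were taken from a table of 108207 genes by their Swiss-Prot match alone, which gave 240 genes: 36 D-type, 41 A-type and 48 B-type cyclins, 21 CDKB kinases, 26 Kip-related (KRP) inhibitors and 68 SIAMESE-related (SMR) inhibitors. The rule for a member reads the name and not the expression values, but the set was picked for description with earlier results of these data known. The match was to an Arabidopsis protein for 234 of them and to a rice protein for 6, so each name is that of the closest known protein. Brassica napus is an allotetraploid, and the identifiers place 105 of the genes in the A subgenome and 123 in the C subgenome, with 3 from scaffolds and 9 gene models that have no position. A further 16 genes, named as putative cyclins of A, B or D type, were not taken by the rule.

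Cyclins switch on CDKs at successive points of the cell cycle. In plants, D-type cyclins act with CDKA at entry into the cycle, where they lead to phosphorylation of the retinoblastoma-related protein and release of E2F factors. A-type cyclins act from DNA synthesis onwards, and B-type cyclins with the plant-specific CDKB kinases act at entry into mitosis. KRP and SMR proteins bind and inhibit cyclin-CDK complexes, and in Arabidopsis leaves they are known for slowing division and for promoting endoreduplication, in which DNA is copied without mitosis.

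Polyadenylated RNA from aboveground tissue, labelled leaf, gave 18 sequenced libraries in 6 groups of 3. WT and bnagrp3 mutant plants had grown for 3 weeks in Hoagland's solution. In each genotype the groups are a mock group, a group after 4 h in 200 mM NaCl and a group after 8 h in 200 mM NaCl. The columns of mock libraries read 0 h, and neither salt time has its own mock group. The labels give neither the allele of bnagrp3, nor the number of lines, nor whether replicates are separate plants. P-values therefore rest on the differences among these 18 libraries alone, whose source may be technical.

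Values are TPM, which relate reads to transcript length and to the library total. TPM keeps no read depth, so the depth behind each value is unknown. Tests were made with limma on log2(TPM + 1), and a gene is called higher or lower at a Benjamini-Hochberg adjusted p under 0.05 over 57923 genes. Fold changes on this scale understate changes of weakly expressed genes. A gene entered the test when it reached 1 TPM in at least 3 libraries. This left 175 of the 240 genes: 26 D-type, 23 A-type and 39 B-type cyclins, 16 CDKB kinases, 20 KRP and 51 SMR inhibitors. Of the 65 genes that did not enter, 20 were listed at 0 in every library and no value exceeded 3.66 TPM. Reads from near-identical homeologs may have been divided between copies in a way the sources do not state.

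Libraries of a group correlated at r = 0.888 to 0.955 in WT and at 0.952 to 0.958 in bnagrp3, across genes. Of 13 genes named glycine-rich protein 3, 2 were lower in each of the 9 bnagrp3 libraries than in any WT library. They are BnaA07G0050000ZS, at 16.9 to 137 TPM in WT and 0.88 to 11.2 TPM in bnagrp3, and a gene model with no position, at 376 to 2799 TPM in WT and 0 to 4.51 TPM in bnagrp3. The ranges of the remaining genes overlapped. BnaC03G0480300ZS stood at 1676 to 4391 TPM in WT and 1046 to 3067 TPM in bnagrp3. BnaA03G0387800ZS stood at 1269 to 2627 and 684 to 1774 TPM. Bnascaffold0025G0035900ZS reached 6.56 TPM in WT and 160 TPM in bnagrp3. The share of all genes whose ranges did not overlap was not computed. WT libraries also differed among themselves. For 326 genes chosen because 2 or more WT libraries had 0.2 TPM or less while each bnagrp3 library had 5 TPM or more, the median ratio to bnagrp3 was highest in WT NaCl 4 h replicate 2, at 0.67, and in WT NaCl 8 h replicate 3, at 0.369. It was 0.214 to 0.254 in WT mock, 0.233 in WT NaCl 4 h replicate 3 and 0.168 in WT NaCl 8 h replicate 1. In WT NaCl 4 h replicate 1 and WT NaCl 8 h replicate 2 it was 0. None of these 326 genes is among the 240. Photosynthesis genes that mark leaf mesophyll were abundant in every library, and the summed level of the 78 genes was 142055 to 156999 TPM in WT mock, 79176 to 85011 TPM at 4 h and 63362 to 70079 TPM at 8 h. In bnagrp3 the sums were 160601 to 165993, 83368 to 86397 and 71806 to 80347 TPM. TPM is a share of each library's transcripts, and the part of this change in the results below was not tested.

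A second annotation in the same table checks the names. Of the 15 genes named Cyclin-B1-2, 6 carry the KEGG orthology name POMP, UMP1, the proteasome maturation protein, whereas the other 42 B-type genes carry CCNB. All 41 A-type genes carry CCNA and all 36 D-type genes CYCD. The 6 POMP genes include the 2 most abundant genes of the B-type set, and are set apart wherever levels are summed. In addition, 26 B-type genes, the 6 among them, have no KOG description, and neither have 14 D-type and 11 A-type genes. The genes without one include both Cyclin-D3-2 genes named below and the most abundant D-type gene. Of the A-type genes 25 are described as cyclin B and related proteins, and 5 as cyclin A. All 26 KRP and 68 SMR genes have neither a KEGG name nor a KOG description, so their names have no such check. Of the 21 CDKB genes, 11 have a KOG description of PCTAIRE kinases and 9 have that of CDK5. Neither description names CDKB kinases, and the 2 genes named B1-1 have the PCTAIRE one. These descriptions therefore do not tell which of the CDKB names are right.

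Among the 175 tested genes more were lower than higher under salt, a balance that depended on the abundance filter and differed between families. In WT after 4 h, 24 of the 175 tested genes were higher and 42 were lower, beside 26.0% and 20.5% of all genes tested, 46.6% in either direction. After 8 h, 14 were higher and 58 lower, beside 29.0% and 17.3%, 46.3% in either direction. In bnagrp3, 32 were higher and 53 lower after 4 h (28.7% and 23.5% of all genes, 52.2% together), and 25 were higher and 59 lower after 8 h (31.3% and 18.4%, 49.7% together). The median log2 change over the 175 genes was -0.10, -0.19, -0.11 and -0.16 in these comparisons, in that order, beside 0.05, 0.14, 0.06 and 0.14 over all genes tested. Rescaling the libraries by median of ratios moves the all-gene median at 8 h to 0.01 in both genotypes and then gives 14 higher and 65 lower in WT and 22 higher and 70 lower in bnagrp3. With a filter of 5 TPM, which left 64 of the 240 genes, WT had 14 higher and 12 lower genes at 4 h and 12 higher and 22 lower ones at 8 h, and bnagrp3 had 19 higher and 16 lower, then 18 higher and 20 lower. The median changes were then 0.04, -0.0043, 0.10 and 0.13, beside 0.11, 0.19, 0.12 and 0.22 over all genes kept by that filter.

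**Figure D1:**
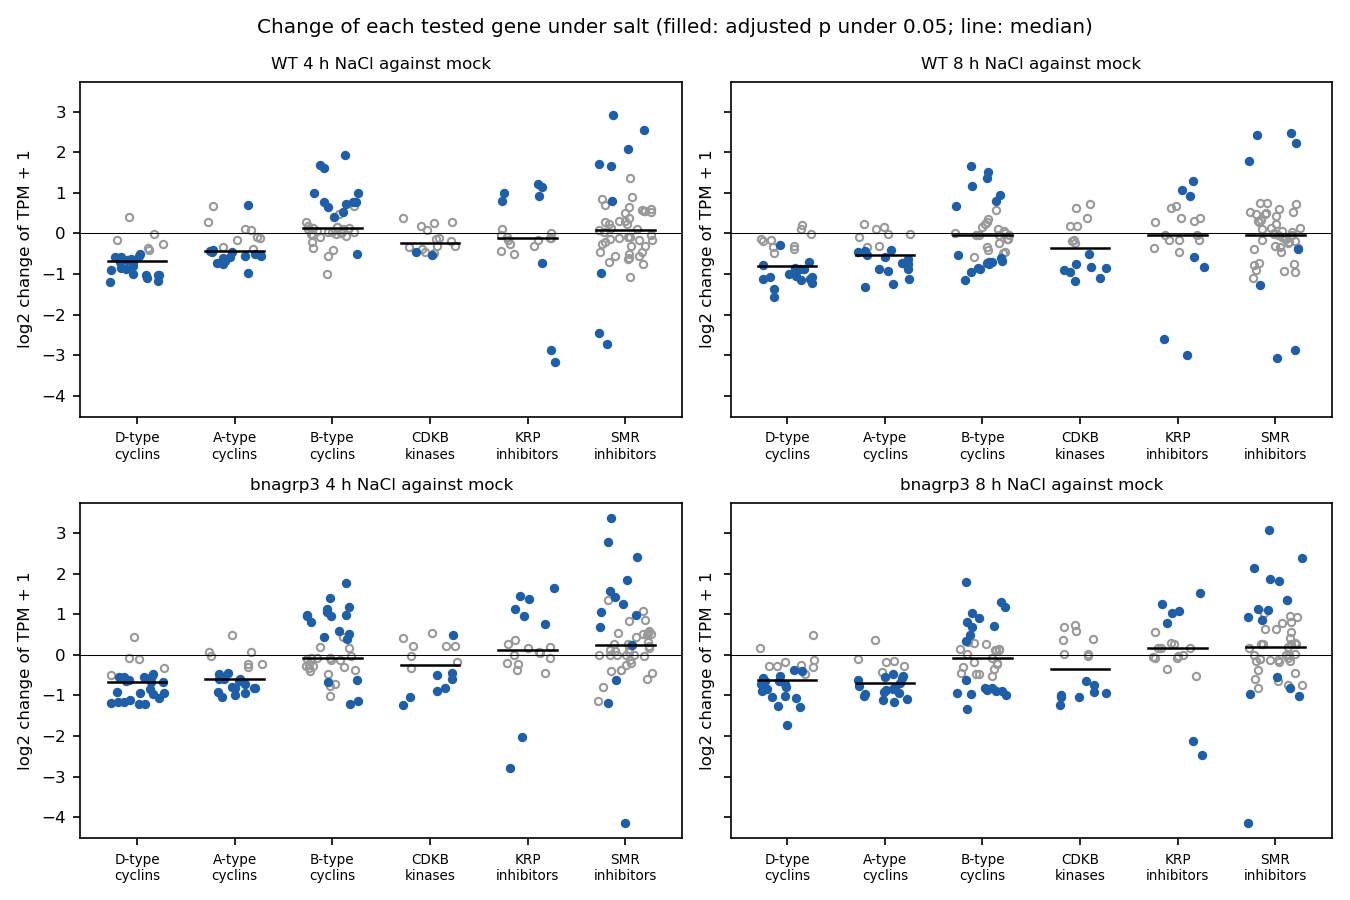
Log2 change of TPM + 1 of each tested gene in the 4 salt comparisons, by family, with points filled where the adjusted p was under 0.05 and the family median as a line. D-type and A-type points lie mostly below 0 in each panel, whereas B-type and SMR points lie on both sides.

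Most genes lower in WT were also lower in bnagrp3. Of the 42 genes lower in WT at 4 h, 38 were lower in bnagrp3 at 4 h, which is 90.5% of the WT list and 71.7% of the 53 in bnagrp3. At 8 h the shared number was 53, 91.4% of the 58 in WT and 89.8% of the 59 in bnagrp3. Over all genes tested the shares for lower genes were 81.4% and 71.1% at 4 h and 78.0% and 73.4% at 8 h. Among higher genes, 19 were shared at 4 h (79.2% of the WT list and 59.4% of the bnagrp3 list) and 12 at 8 h (85.7% and 48.0%), beside 81.0% and 73.5%, and 80.7% and 74.7%, over all genes tested. None of the 175 genes was called in opposite directions in the genotypes at either time. The groups compared in WT and in bnagrp3 share no library, but the spread of each gene was estimated over all 18 libraries. The calls in the 2 genotypes are therefore not independent.

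Many D-type cyclins fell and none rose. In the order WT 4 h, WT 8 h, bnagrp3 4 h and bnagrp3 8 h, 20, 16, 21 and 17 of the 26 tested genes were lower and 0 were higher, with median log2 changes of -0.68, -0.81, -0.67 and -0.61. Over all genes tested, 20.5%, 17.3%, 23.5% and 18.4% were lower and 26.0%, 29.0%, 28.7% and 31.3% higher. The all-gene medians were 0.05, 0.14, 0.06 and 0.14. Leaving out each library in turn left 19 to 20, 15 to 17, 19 to 22 and 16 to 18 lower. The summed level of the 36 D-type genes was 99.6 to 103 TPM in WT mock, 50.2 to 53.6 at 4 h and 47.2 to 53.8 at 8 h, and 99.2 to 103, 48.0 to 51.7 and 55.4 to 57.7 in bnagrp3. In all 4 salt comparisons the groups did not overlap. In bulk tissue, fewer cells expressing a gene and less RNA per cell cannot be told apart.

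Among the D-type genes, CYCD3 genes, known in Arabidopsis for extending the proliferative phase of leaf cells, were often lower: all 6 tested Cyclin-D3-1 genes in WT at 4 h, and 5 in each other salt comparison. The 2 tested Cyclin-D3-2 genes were lower in each salt comparison, as were 2 of the 4 tested Cyclin-D3-3 genes. The Cyclin-D3-2 gene BnaA07G0141800ZS stood at 4.92, 4.62 and 6.1 TPM in WT mock, 2.54, 1.65 and 2 at 4 h and 1.15, 1.95 and 1.13 at 8 h. In the mutant it stood at 5.06, 4.79 and 5.22 TPM in mock, 1.25, 1.5 and 2.1 at 4 h and 0.9, 1.01 and 0.6 at 8 h. All salt libraries lay below all mock libraries, and the log2 changes were -1.02 (SE 0.16, adjusted p = 0.00011), -1.38, -1.22 and -1.72, the last with adjusted p = 6.07e-07. Its C-chromosome counterpart by name, BnaC07G0205900ZS, changed by -0.72, -1.13, -0.93 and -1.27 from 3.68 to 4.88 TPM in mock. The Cyclin-D3-1 gene BnaC03G0748200ZS stood at 6.9 to 7.16 TPM in WT mock and 2.42 to 3.98 at 4 h, a log2 change of -1.03 (SE 0.17, adjusted p = 0.000169), and changed by -1.21 in bnagrp3 at 4 h.

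The Cyclin-D1-1 gene BnaC02G0246400ZS stood at 7.67, 8.42 and 8.97 TPM in WT mock, 3.13, 3.01 and 3 at 4 h and 1.85, 2.35 and 2.32 at 8 h. In the mutant it stood at 5.46, 5.85 and 5.63 TPM in mock, 4.67, 3.19 and 3.01 at 4 h and 3.91, 2.95 and 3.54 at 8 h. The bnagrp3 mock libraries lay below the WT mock libraries and the bnagrp3 libraries at 8 h above those of WT. The change was -1.56 (SE 0.12, adjusted p = 1.13e-07) in WT and -0.58 (SE 0.12, adjusted p = 0.00124) in bnagrp3 at 8 h, and the difference of the 8 h responses was 0.98 (SE 0.18, adjusted p = 0.013). The most abundant D-type gene, BnaC06G0368000ZS, also named Cyclin-D1-1, had log2 changes of -0.87 and -0.77 in WT and -1.16 and -0.71 in bnagrp3. The Cyclin-D5-1 gene BnaA03G0564000ZS spanned 3.84 to 4.89 TPM in WT mock and 1.1 to 2.19 at 4 h, a log2 change of -1.17 (SE 0.17, adjusted p = 4.08e-05).

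Fewer Cyclin-D2-1 genes were lower at 8 h than at 4 h. In WT 4 of the 5 tested genes were lower at 4 h and 1 at 8 h, and in bnagrp3 4 and 2. BnaC04G0438500ZS stood at 2.81, 2.95 and 3.85 TPM in WT mock, 1.57, 1.6 and 1.54 at 4 h and 2.53, 3.01 and 2.63 at 8 h, and rose by 0.53 (SE 0.12, adjusted p = 0.00771) from 4 h to 8 h on the log2 scale, a call lost when only the groups compared were fitted, with adjusted p = 0.0609. BnaC08G0444000ZS rose by 0.56 (SE 0.12, adjusted p = 0.00664) from 4 h to 8 h in bnagrp3.

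**Figure D2:**
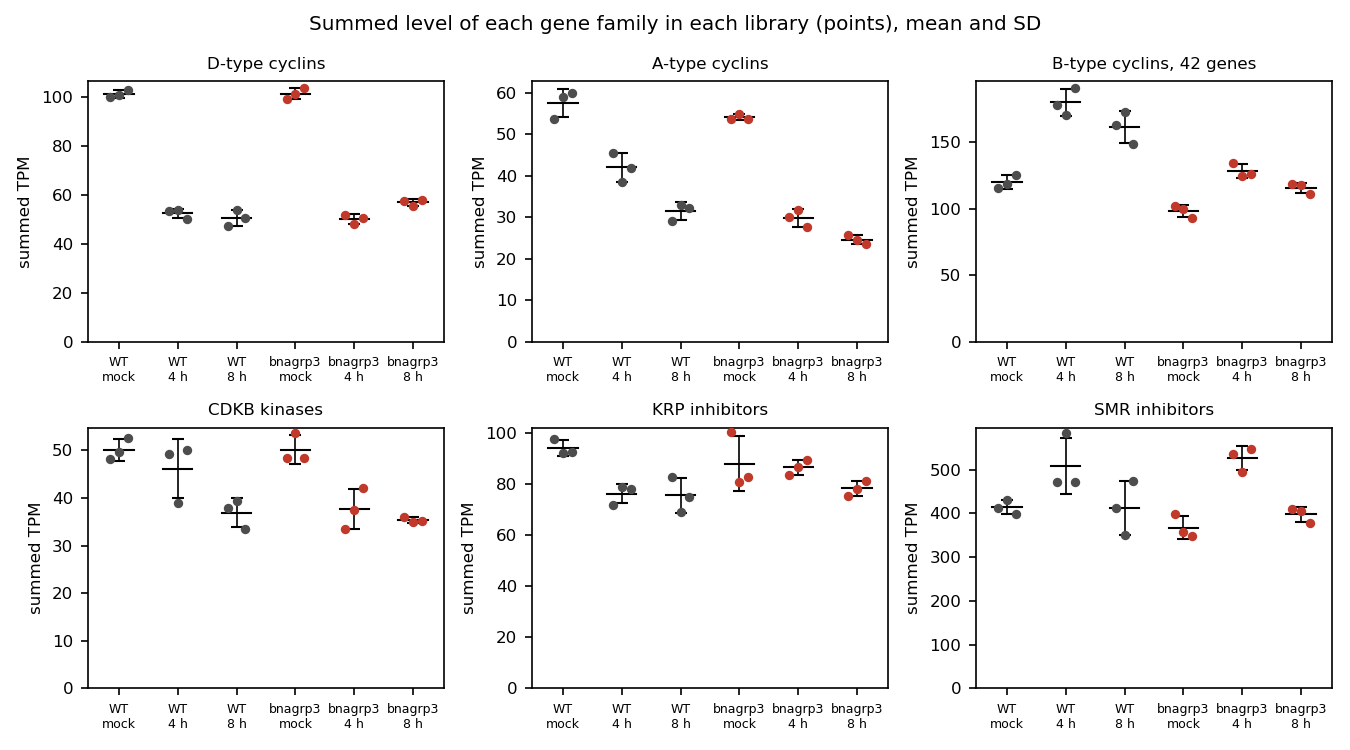
Summed TPM of all genes of each family in each library, 3 points a group, with mean and SD, the B-type panel without the 6 POMP genes. D-type sums in the salt libraries lie between 47.2 and 57.7 TPM and in the mock libraries between 99.2 and 103 TPM, while mean SMR sums are highest at 4 h in both genotypes. In WT the SMR libraries overlap, with WT NaCl 8 h replicate 3 at 473 TPM and WT NaCl 4 h replicates 1 and 3 at 471 TPM.

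Most tested A-type cyclins fell. In the same order, 13, 15, 16 and 17 of the 23 tested genes were lower, and 1, 0, 0 and 0 were higher, with median log2 changes of -0.44, -0.53, -0.60 and -0.68. Lower genes made up 56.5%, 65.2%, 69.6% and 73.9% of the tested genes, beside 76.9%, 61.5%, 80.8% and 65.4% of the D-type genes. Of all genes tested, 20.5%, 17.3%, 23.5% and 18.4% were lower and 26.0%, 29.0%, 28.7% and 31.3% higher. Leaving out each library in turn left 8 to 14, 10 to 15, 14 to 16 and 14 to 18 lower, with 8 without WT mock replicate 3. Without WT NaCl 4 h replicate 2 and WT NaCl 8 h replicate 3, 10 and 12 were lower in WT. The summed level of the 41 genes was 53.7 to 59.9 TPM in WT mock and 29.2 to 33.0 TPM in WT at 8 h, and 53.6 to 55.0 and 23.5 to 25.7 TPM in bnagrp3.

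All 4 tested Cyclin-A1-1 genes were lower in each salt comparison. BnaC02G0079000ZS stood at 3.82, 5.2 and 3.9 TPM in WT mock and 1, 1.47 and 1.19 at 8 h, a log2 change of -1.25 (SE 0.19, adjusted p = 6.67e-05), and at 3.65, 3.2 and 3.63 TPM in bnagrp3 mock and 0.78, 1.12 and 1.34 at 8 h, a change of -1.12 (SE 0.19, adjusted p = 0.000165). The CYCA2 genes are known in Arabidopsis for keeping cells in the mitotic cycle together with CDKB1. The most abundant of them, the Cyclin-A2-3 gene BnaC05G0130300ZS, stood at 6.75, 5.96 and 6.4 TPM in WT mock, 4.46, 3.81 and 3.73 at 4 h and 3.44, 3.5 and 3.24 at 8 h. The groups did not overlap, and the log2 changes were -0.56 (SE 0.10, adjusted p = 0.000267) and -0.75 (SE 0.10, adjusted p = 1.95e-05). The other abundant Cyclin-A2-3 gene, BnaA06G0105100ZS, stood at 3.13 to 3.45 TPM in WT mock and changed by -0.15 (SE 0.14, adjusted p = 0.396) at 4 h, which did not pass, and by -0.63 (SE 0.14, adjusted p = 0.00152) at 8 h. The Cyclin-A2-4 gene BnaA03G0265400ZS changed by -1.03 (SE 0.15, adjusted p = 5.1e-05) in bnagrp3 at 4 h. Its libraries spanned 1.69 to 2.43 TPM in bnagrp3 mock and 0.38 to 0.63 at 4 h. By name, in the order used above, 1, 2, 2 and 2 of 2 tested Cyclin-A2-3 genes were lower. Of 4 tested Cyclin-A2-4 genes 1, 1, 2 and 2 were lower. Of 2 tested Cyclin-A2-2 genes 1 was lower in each salt comparison, and the 1 tested Cyclin-A2-1 gene was not called in any.

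Cyclin-A3-2 genes, whose relatives in tobacco act at the start of DNA synthesis, included both large falls and the single A-type rise. BnaA05G0187700ZS spanned 3.98 to 5.1 TPM in WT mock, 1.34 to 2.14 at 4 h and 1.13 to 1.33 at 8 h, log2 changes of -0.97 (SE 0.14, adjusted p = 6.51e-05) and -1.31 (SE 0.14, adjusted p = 3.44e-06). BnaC05G0317100ZS fell by 0.75 (SE 0.20, adjusted p = 0.00707) in WT at 4 h, a call lost with a pseudocount of 0.1, with adjusted p = 0.0576. BnaA10G0059700ZS stood at 1.7, 1.42 and 1.69 TPM in WT mock and at 2.62, 3.89 and 3.2 at 4 h, a rise of 0.69 (SE 0.19, adjusted p = 0.00882), and at 1.36, 0.92 and 2.24 at 8 h. In bnagrp3 it changed by 0.08 (SE 0.19, adjusted p = 0.779) at 4 h, which did not pass. The difference of the 4 h responses was -0.61 (SE 0.27, adjusted p = 0.268), which did not pass either.

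B-type cyclins moved in both directions and changed with time. In the same order, 12, 7, 14 and 10 of the 39 tested genes were higher, and 1, 11, 4 and 10 were lower. The shares over all genes tested were 26.0%, 29.0%, 28.7% and 31.3% higher and 20.5%, 17.3%, 23.5% and 18.4% lower. The B-type counts split along the table's other annotation, a division made after the values were seen. Among the 19 tested genes with a KOG cyclin description, 1 was lower and 5 higher in WT at 4 h, and 11 were lower and 1 higher at 8 h, with a median log2 change of -0.61 at 8 h. In bnagrp3 these 19 gave 3 lower and 6 higher at 4 h and 9 lower and 2 higher at 8 h. Among the 14 tested genes without a KOG description and without the POMP name, 5 were higher and 0 lower in WT at each time, and 8 and 7 were higher and 1 and 1 lower in bnagrp3. Their median log2 change was 0.19, 0.16, 0.44 and 0.38 in the same order, beside 0.05, 0.14, 0.06 and 0.14 over all genes tested. The 6 POMP genes gave 2, 1, 0 and 1 higher and 0 lower. Whether the genes without a KOG description make functional cyclins cannot be told from the table. The summed level of the 42 B-type genes without the POMP name was 116 to 126 TPM in WT mock, 171 to 191 at 4 h and 149 to 173 at 8 h, and 93.0 to 102, 125 to 134 and 111 to 119 TPM in bnagrp3, so the salt libraries lay above the mock libraries.

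**Figure D3:**
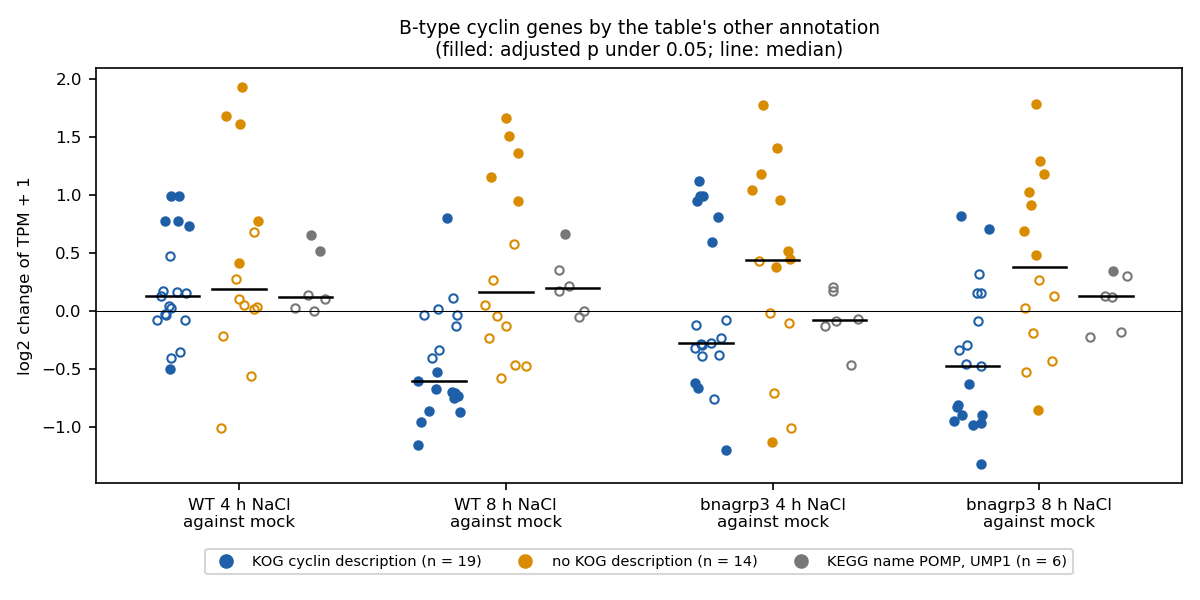
Log2 change of TPM + 1 of the 39 tested B-type genes in the 4 salt comparisons, split into 19 genes with a KOG cyclin description, 14 without, and 6 with the KEGG name POMP, UMP1, with medians as lines. Genes with a cyclin description lie mostly below 0 at 8 h, with a median of -0.61 in WT and -0.48 in bnagrp3, whereas the median of the genes without is 0.16 in WT and 0.38 in bnagrp3, beside 0.14 over all genes tested in both genotypes.

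Among the genes with a cyclin description, the Cyclin-B1-3 gene BnaC01G0466200ZS had the largest called fall of the B-type genes with at least 2 TPM in each salt comparison. It stood at 5.27, 3.68 and 4.75 TPM in WT mock, 2.95, 3.04 and 2.77 at 4 h and 1.92, 1.22 and 1.36 at 8 h, and at 4.88, 3.89 and 5.01 TPM in bnagrp3 mock, 1.35, 1.53 and 1.39 at 4 h and 0.97, 1.33 and 1.4 at 8 h. The log2 changes were -0.50 (SE 0.13, adjusted p = 0.00667) and -1.15 in WT and -1.20 (SE 0.13, adjusted p = 2.73e-06) and -1.32 in bnagrp3. The bnagrp3 libraries at 4 h lay below all WT libraries at 4 h, and the difference of the responses there was -0.71 (SE 0.19, adjusted p = 0.0658), just outside the threshold.

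The Cyclin-B1-2 gene BnaA03G0022600ZS, which carries the CCNB name, stood at 3.59, 3.82 and 4.85 TPM in WT mock, 4.09, 5.53 and 4.6 at 4 h and 1.28, 2.47 and 1.66 at 8 h. From 4 h to 8 h it fell by 1.05 (SE 0.17, adjusted p = 0.00106). BnaC02G0023000ZS, of the same name, changed by -0.95 (SE 0.26, adjusted p = 0.00725) in WT and -0.96 (SE 0.26, adjusted p = 0.00626) in bnagrp3 at 8 h. Its WT libraries at 4 h spanned 1.41 to 4.93 TPM, with the highest value in replicate 2. The Cyclin-B2-4 gene BnaC06G0423100ZS changed by -0.98 (SE 0.19, adjusted p = 0.000464) in bnagrp3 at 8 h. The Cyclin-B1-1 gene BnaC01G0016400ZS, whose Arabidopsis namesake is a marker of dividing cells, stood at 2.31, 3.37 and 4.28 TPM in bnagrp3 mock and 0.59, 1.43 and 0.87 at 4 h, a change of -1.13 (SE 0.25, adjusted p = 0.00131). In WT it stood at 2.7, 1.65 and 1.05 TPM in mock and 2.83, 2.06 and 2.04 at 4 h, and the groups overlapped. The difference of the 4 h responses was -1.41 (SE 0.35, adjusted p = 0.0496), a call lost in 19 of the alternative settings, where the adjusted p was 0.0524 to 0.119. This gene has no KOG description.

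Cyclin-B2-3 genes on scaffolds rose at 4 h and overlapped mock at 8 h. Bnascaffold0025G0018200ZS stood at 0.73, 0.83 and 0.59 TPM in WT mock, 2.75, 1.94 and 2.6 at 4 h and 0.51, 0.77 and 0.95 at 8 h, and changed from 4 h to 8 h by -0.98 (SE 0.22, adjusted p = 0.00899) in WT and -0.90 (SE 0.22, adjusted p = 0.0141) in bnagrp3. The bnagrp3 call was lost in 4 alternative settings, with adjusted p = 0.0542 to 0.0683, among them those without bnagrp3 NaCl 4 h replicate 1 and without bnagrp3 NaCl 8 h replicate 1 or 2. Bnascaffold0025G0018300ZS rose by 0.995 (SE 0.15, adjusted p = 5.71e-05) at 4 h in bnagrp3. Its values were identical in all 18 libraries to those of Bnascaffold0674G0000200ZS, so these are a single measurement that the counts above hold as 2 genes. A gene model with no position, also named Cyclin-B2-3, stood at 0.55, 0.15 and 0.21 TPM in WT mock and 4.13, 2.73 and 5.3 at 4 h, and remained at 2.84, 2.38 and 2.85 at 8 h. Its log2 rise was 1.93 (SE 0.19, adjusted p = 1.19e-06) at 4 h in WT and 1.78 (SE 0.19, adjusted p = 2.08e-06) in bnagrp3.

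Genes named Cyclin-B2-4 without a KOG description were among the most abundant and rose. BnaA05G0112000ZS stood at 20.5, 12.5 and 10.9 TPM in bnagrp3 mock and 41.0, 38.2 and 38.6 at 4 h, a rise of 1.41 (SE 0.23, adjusted p = 0.000109), and rose by 0.78 (SE 0.23, adjusted p = 0.0116) in WT. BnaC02G0341900ZS stood at 11.9, 11.5 and 14.2 TPM in WT mock, 40.8, 38.4 and 41.6 at 4 h and 43.6, 41.7 and 39.9 at 8 h, a rise of 1.66 (SE 0.16, adjusted p = 9.58e-07). BnaC02G0438200ZS rose by 1.68 (SE 0.40, adjusted p = 0.00297) in WT at 4 h, where its libraries spanned 3.21 to 15.8 TPM. A gene model with no position, named Cyclin-B1-2, rose further between the times. It spanned 11.3 to 14.9 TPM in WT at 4 h and 20.4 to 24.4 at 8 h, a change of 0.74 (SE 0.13, adjusted p = 0.00159), and by 0.58 (SE 0.13, adjusted p = 0.00727) in bnagrp3.

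The POMP genes, described for completeness, gave few calls under salt. Between the genotypes in mock, at 4 h and at 8 h, 1, 1 and 1 of the 6 were higher in bnagrp3 and 1, 2 and 1 lower. Of all genes tested, 21.5%, 23.6% and 23.4% were called there in either direction. BnaA02G0165100ZS stood at 29.9 to 36.7 TPM in the WT set of 9 and 21.7 to 31.8 TPM in that of bnagrp3, and none of its salt changes passed. BnaA07G0291700ZS stood at 16.9 to 36.4 and 37.3 to 55.7 TPM and was higher in bnagrp3 in each condition, by 0.75 (SE 0.23, adjusted p = 0.0321) in mock. Summed over the 6 genes, the level was 134 to 154 TPM in WT mock and 161 to 180 at 4 h, and 156 to 160 and 141 to 184 in bnagrp3.

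CDKB kinases, whose transcripts in Arabidopsis peak from late S phase to mitosis, were lower in 2, 8, 7 and 8 of the 16 tested genes and higher in 0, 0, 1 and 0, beside 20.5%, 17.3%, 23.5% and 18.4% of all genes lower. Among the 6 with a CDK5 description, 2, 5, 4 and 5 were lower, and the median log2 change was -0.40, -0.88, -0.47 and -0.83. Among the 10 with another description or none, 0, 3, 3 and 3 were lower. The summed level of the 21 genes was 48.1 to 52.5 TPM in WT mock, 39.0 to 50.1 at 4 h and 33.5 to 39.3 at 8 h, and 48.3 to 53.7, 33.6 to 42.1 and 35.02 to 36.01 TPM in bnagrp3. The most abundant gene, the B2-1 gene BnaA07G0362200ZS, stood at 7.59, 9.3 and 8.94 TPM in WT mock, 6.4, 5.37 and 6.19 at 4 h and 3.43, 3.25 and 2.98 at 8 h. Its 3 WT groups did not overlap, and it changed by -0.46 (SE 0.12, adjusted p = 0.00537) at 4 h and -1.18 (SE 0.12, adjusted p = 1.32e-06) at 8 h. The next, BnaC06G0426100ZS, changed by -0.14 (SE 0.19, adjusted p = 0.564) at 4 h, which did not pass, and by -0.85 (SE 0.19, adjusted p = 0.00177) at 8 h.

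The B1-1 gene BnaC04G0327200ZS, which has the PCTAIRE description, differed between the genotypes in its 4 h response. It stood at 3.63, 3.97 and 4.91 TPM in WT mock, 3.38, 2.65 and 3.45 at 4 h and 1.11, 1.69 and 1.41 at 8 h, and at 6.12, 5.18 and 5.51 TPM in bnagrp3 mock, 2.05, 1.9 and 2.66 at 4 h and 1.87, 1.75 and 1.75 at 8 h. At 4 h the change was -0.31 (SE 0.13, adjusted p = 0.0572) in WT and -1.05 (SE 0.13, adjusted p = 6.63e-06) in bnagrp3, and the difference was -0.74 (SE 0.18, adjusted p = 0.0455), a call lost in 18 of the alternative settings, with adjusted p 0.0518 to 0.112. At 8 h it was -1.10 and -1.24. The B2-2 gene BnaA07G0130000ZS fell by 0.53 (SE 0.15, adjusted p = 0.00968) in WT at 4 h. The B1-2 gene BnaC03G0218600ZS, also with the PCTAIRE description, fell by 1.22 (SE 0.20, adjusted p = 9.87e-05) in bnagrp3 at 4 h. It spanned 1.59 to 3.13 TPM in bnagrp3 mock, 0.32 to 0.44 at 4 h and 0.59 to 1.02 in WT mock. The 1 rise was that of the B2-1 gene BnaC03G0349300ZS, 0.50 (SE 0.17, adjusted p = 0.0252) in bnagrp3 at 4 h, another gene with the PCTAIRE description. That call was lost without bnagrp3 mock replicate 1 or 2 or bnagrp3 NaCl 4 h replicate 2 or 3, where the adjusted p was 0.0573 to 0.112. Without WT NaCl 4 h replicate 2, 1 CDKB gene was higher and 4 were lower in WT at 4 h, and 2 were higher at 8 h in each genotype.

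KRP inhibitors held large falls of some copies beside rises of others. Of the 20 tested genes 5, 3, 6 and 5 were higher and 3, 4, 2 and 2 were lower. Over all genes tested, 26.0%, 29.0%, 28.7% and 31.3% were higher and 20.5%, 17.3%, 23.5% and 18.4% lower, so the changes are described by copy. In WT at 4 h, 3 were higher without WT mock replicate 2 or WT NaCl 4 h replicate 2 or 3, and at 8 h 2 were lower without WT NaCl 8 h replicate 3. KRP2, which in Arabidopsis restrains entry into the cycle in lateral root founder cells, has 4 tested copies here, and 2 fell in each comparison. BnaC08G0308100ZS stood at 17.97, 19.4 and 16.6 TPM in WT mock, 1.08, 1.15 and 1.14 at 4 h and 1.78, 1.94 and 2.79 at 8 h. In the mutant it stood at 28.8, 24.0 and 25.5 TPM in mock, 2.38, 3.22 and 3.24 at 4 h and 4.41, 6.3 and 5.11 at 8 h. No salt library overlapped a mock library. The log2 changes were -3.16 (SE 0.14, adjusted p = 1.73e-10) and -2.59 in WT and -2.78 (SE 0.14, adjusted p = 5.98e-10) and -2.12 in bnagrp3, and the partial return from 4 h to 8 h was 0.56 (SE 0.14, adjusted p = 0.0126) in WT and 0.67 (SE 0.14, adjusted p = 0.00476) in bnagrp3. The WT return lost its call in 3 alternative settings, with adjusted p = 0.0521 to 0.106, and was 0.43 without WT NaCl 8 h replicate 3.

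BnaA09G0472200ZS, also named KRP2, stood at 13.7, 17.6 and 12.5 TPM in WT mock and 1.09, 1.03 and 1.18 at 4 h, and at 10.1, 9.39 and 7.43 TPM in bnagrp3 mock and 0.67, 1.9 and 1.98 at 4 h, log2 changes of -2.88 (SE 0.29, adjusted p = 1.43e-06) and -2.02 (SE 0.29, adjusted p = 3.39e-05). At 8 h it changed by -3.002 and -2.47. The remaining tested KRP2 copies stayed between 1.11 and 2.65 TPM in group means and did not pass in any salt comparison.

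KRP4 copies rose: 4, 3, 4 and 4 of the 6 tested were higher, and 1 was lower in WT at 4 h. BnaC03G0182900ZS stood at 6.32, 4.27 and 3.91 TPM in WT mock, 10.8, 11.8 and 12.3 at 4 h and 15.3, 10.6 and 13.6 at 8 h, and at 3.79, 4.23 and 3.56 TPM in bnagrp3 mock, 13.0, 14.6 and 15.1 at 4 h and 11.9, 13.2 and 13.7 at 8 h. All salt libraries lay above all mock libraries, and the log2 changes were 1.14 (SE 0.14, adjusted p = 1.44e-05) and 1.65 (SE 0.14, adjusted p = 2.58e-07) at 4 h. BnaA03G0157000ZS rose by 1.21 (SE 0.14, adjusted p = 6.09e-06) and 1.13 at 4 h. The KRP6 gene BnaA03G0357100ZS stood at 0.79, 3.25 and 2.45 TPM in WT at 4 h, where replicate 1 lay within the mock range of 0.27 to 1.29, and at 4.84, 4.61 and 5.83 in bnagrp3, rises of 0.80 (SE 0.30, adjusted p = 0.0371) and 1.45 (SE 0.30, adjusted p = 0.000777). The 2 most abundant KRP genes are the KRP1 copies. BnaA09G0586600ZS stood at 13.4 to 19.8 TPM in WT mock and changed by -0.57 (SE 0.20, adjusted p = 0.0259) in WT at 8 h with overlapping libraries, and BnaC08G0438000ZS stood at 10.9 to 14.3 TPM with no salt change that passed.

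SMR inhibitors, short proteins, were higher in 6, 4, 11 and 10 of the 51 tested genes and lower in 3, 4, 3 and 5. These shares of 11.8%, 7.84%, 21.6% and 19.6% higher are below those of all genes, so the rises are described by gene. In WT at 4 h, leaving out each library in turn gave 5 to 10 higher and 1 to 5 lower, with 10 and 5 without WT NaCl 8 h replicate 3 and 1 lower without WT mock replicate 2. At 8 h in bnagrp3, 3 were lower without bnagrp3 mock replicate 1 or bnagrp3 NaCl 8 h replicate 1. The most abundant gene of all 240 is the SMR1 gene BnaC05G0496000ZS, whose Arabidopsis namesake promotes early endoreduplication in sepals and leaves. It stood at 106, 114 and 104 TPM in WT mock, 108, 140.1 and 112 at 4 h and 88.7, 74.0 and 86.8 at 8 h, and at 93.9, 103 and 97.9 TPM in bnagrp3 mock, 115, 121 and 115 at 4 h and 62.1, 70.6 and 67.2 at 8 h. At 8 h all libraries lay below their mock libraries, with changes of -0.38 (SE 0.10, adjusted p = 0.00483) in WT and -0.56 (SE 0.10, adjusted p = 0.000221) in bnagrp3. At 4 h the changes were 0.14 (SE 0.10, adjusted p = 0.249) and 0.25 (SE 0.10, adjusted p = 0.042). Its A-chromosome namesake BnaA05G0448900ZS changed by -1.26 (SE 0.22, adjusted p = 0.000258) and -0.97 (SE 0.22, adjusted p = 0.00196) at 8 h, and in bnagrp3 by -1.23 (SE 0.22, adjusted p = 0.00216) from 4 h to 8 h.

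Large rises were those of SIM and SMR2 genes. SIM keeps Arabidopsis leaf hairs from dividing. BnaC09G0601200ZS stood at 12.6, 6.55 and 4.87 TPM in WT mock, 51.7, 80.6 and 59.1 at 4 h and 46.2, 33.9 and 56.8 at 8 h, and at 2.75, 1.7 and 1.9 TPM in bnagrp3 mock, 12.9, 10.9 and 7.31 at 4 h and 20.2, 17.4 and 9.72 at 8 h. No salt library overlapped a mock library, and the rises at 4 h were 2.91 (SE 0.32, adjusted p = 4.01e-06) in WT and 1.85 (SE 0.32, adjusted p = 0.000217) in bnagrp3. Of the 6 tested SIM genes 2, 2, 3 and 4 were higher and 0 lower. The SMR2 gene BnaC08G0033500ZS stood at 0.69, 0 and 0.56 TPM in WT mock and 5.95, 12.5 and 4.61 at 4 h, and at 0, 0 and 2.19 TPM in bnagrp3 mock and 18.6, 9.37 and 16.4 at 4 h, rises of 2.55 (SE 0.46, adjusted p = 0.000335) and 3.37 (SE 0.46, adjusted p = 1.98e-05). Mock values of this gene include 0 in both genotypes. The SMR2 gene BnaA08G0300600ZS rose by 2.80 (SE 0.67, adjusted p = 0.00268) in bnagrp3 at 4 h and changed by 1.38 (SE 0.67, adjusted p = 0.11) in WT, which did not pass. The abundant SMR2 gene BnaC05G0060400ZS stood at 44.3 to 50.8 TPM in bnagrp3 mock and 90.9 to 104 at 4 h, a rise of 0.98 (SE 0.27, adjusted p = 0.00724).

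Few SMR genes fell. SMR4 acts in the Arabidopsis stomatal lineage. BnaC09G0619100ZS stood at 22.2, 40.4 and 13.6 TPM in WT mock and 34.96, 8.18 and 15.8 in bnagrp3 mock, and was listed at 0 in all 6 bnagrp3 salt libraries. In WT it stood at 3.79, 0 and 16.3 at 4 h and 0, 2.74 and 8.68 at 8 h, changes of -2.47 (SE 0.89, adjusted p = 0.0342) and -2.86 (SE 0.89, adjusted p = 0.0161). The WT call at 4 h was lost in 8 alternative settings, and the change was -1.40 with adjusted p = 0.176 without WT NaCl 4 h replicate 2. The WT call at 8 h was lost in 3, with -2.0 and adjusted p = 0.0889 without WT NaCl 8 h replicate 1 and -2.47 and adjusted p = 0.0645 without WT mock replicate 2. In bnagrp3 both salt comparisons were called, with adjusted p = 0.00116 at 4 h, and no fold is given against libraries at 0. BnaA10G0298500ZS, the second SMR4 copy, stood at 7.39, 14.4 and 16.3 TPM in WT mock, 0, 0 and 6.52 at 4 h and 0, 2.74 and 0 at 8 h, and was listed at 0 in every bnagrp3 library. The SMR13 gene BnaC03G0445400ZS changed by -1.19 (SE 0.40, adjusted p = 0.0213) in bnagrp3 at 4 h and by -1.01 (SE 0.40, adjusted p = 0.0483) at 8 h, the latter a call lost in 19 alternative settings, with a change of -0.53 and adjusted p = 0.257 without bnagrp3 NaCl 8 h replicate 1. The 4 h call was lost in 3, with adjusted p = 0.0732 without bnagrp3 mock replicate 1 and 0.0786 without bnagrp3 NaCl 4 h replicate 3. SMR5 genes, known for responding to DNA damage and reactive oxygen in Arabidopsis, had 2 tested copies, none called in any salt comparison.

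**Figure D4:**
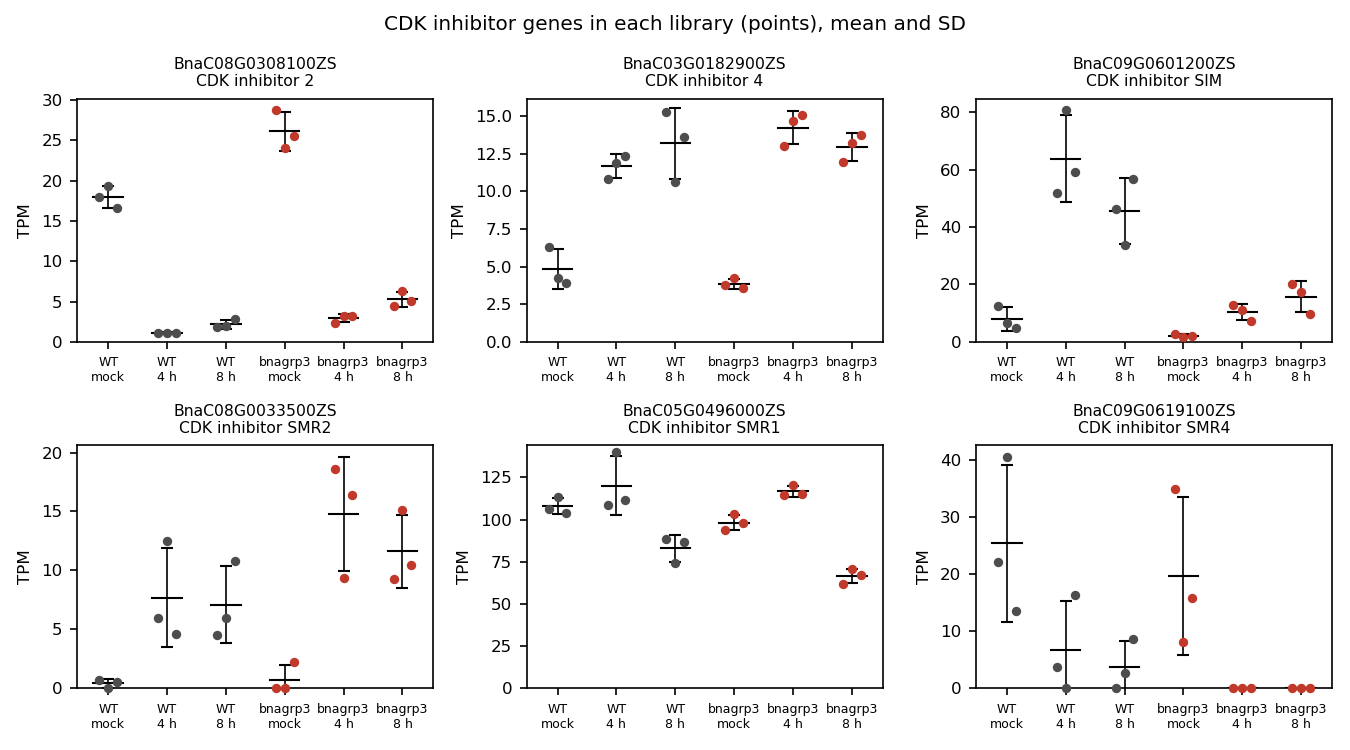
TPM of 6 CDK inhibitor genes in each library, 3 points a group, with mean and SD; SD bars that would pass below 0 end at the axis. KRP2 (BnaC08G0308100ZS) drops from at least 16.6 TPM in mock to at most 6.30 TPM with salt, while KRP4 (BnaC03G0182900ZS), SIM (BnaC09G0601200ZS) and SMR2 (BnaC08G0033500ZS) are higher with salt.

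Between the salt times, 29 of the 175 genes were called in WT (24 of them lower at 8 h) and 18 in bnagrp3 (14 lower), which is 16.6% and 10.3% of them beside 14.7% and 15.3% of all genes tested. Genes lower at 8 h made up 13.7% and 8.0% of the 175 genes, beside 5.75% and 5.05% of all genes, and those higher 2.86% and 2.29%, beside 8.99% and 10.3%. Of those lower at 8 h, 11 in WT and 8 in bnagrp3 were B-type cyclins, and 5 and 1 were CDKB kinases.

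Between the genotypes, 26 of the 175 genes were called in mock (8 higher and 18 lower in bnagrp3), 38 at 4 h (11 and 27) and 30 at 8 h (15 and 15), beside 21.5%, 23.6% and 23.4% of all genes. The shares over the 175 genes, 14.9%, 21.7% and 17.1%, are not above that background. Among all genes 9.10% were higher and 12.4% lower in mock, 9.89% and 13.7% at 4 h, and 11.4% higher at 8 h with 6946 of 57923 genes lower. CDKB kinases gave 6, 9 and 8 calls among 16 tested genes, 37.5%, 56.2% and 50.0%, with 3, 4 and 5 higher and 3, 5 and 3 lower. Most of these calls were of the 10 genes without the CDK5 description, with 2, 3 and 4 higher and 3, 4 and 3 lower. Among the 6 genes with that description, 1, 1 and 1 were higher and 0, 1 and 0 lower. At 4 h the lower CDKB genes numbered 2 to 4 when each library was left out in turn, with 2 without WT NaCl 4 h replicate 1 or 3 or bnagrp3 NaCl 4 h replicate 1 or bnagrp3 NaCl 8 h replicate 2. Those higher in mock numbered 5 without WT NaCl 4 h replicate 2. D-type cyclins gave 1, 1 and 2 calls, and the mock level was 99.6 to 103 TPM in WT and 99.2 to 103 TPM in bnagrp3, summed over the 36 genes. The largest differences were of copies that were low or listed at 0 in bnagrp3 in every condition.

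The Cyclin-B2-4 gene BnaC02G0341900ZS, at 11.5 to 43.6 TPM in all WT libraries, stood at 0.25, 0.22 and 0.51 TPM in bnagrp3 mock, 2.31, 1.1 and 1.44 at 4 h and 1.21, 1.53 and 0.72 at 8 h. Its log2 difference, bnagrp3 minus WT, was -3.35 (SE 0.16, adjusted p = 2.62e-09) in mock, -4.004 at 4 h and -4.33 at 8 h. It still rose with salt in bnagrp3, by 0.96 (SE 0.16, adjusted p = 0.000151) at 4 h. The B2-1 kinase gene BnaC04G0277200ZS stood at 3.29 to 12.8 TPM in WT and 0 to 0.09 TPM in bnagrp3, with a log2 difference of -2.74 (SE 0.32, adjusted p = 3.22e-05) in mock. The SIM gene BnaC03G0019300ZS stood at 2.8 to 11.4 TPM in WT and was listed at 0 in all 9 bnagrp3 libraries, called in mock with adjusted p = 0.000158. The SMR4 gene BnaA10G0298500ZS was called in mock with adjusted p = 0.000846. BnaC04G0277200ZS has the PCTAIRE description, and BnaC02G0341900ZS has no KOG description.

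In the other direction, the SIM gene BnaC02G0016400ZS stood at 3.64, 5.05 and 4.31 TPM in bnagrp3 mock and 0.37, 0.34 and 0.93 in WT mock, a difference of 1.80 (SE 0.47, adjusted p = 0.0136), and differed by 2.74 (SE 0.47, adjusted p = 0.000685) at 8 h. With a pseudocount of 0.1 the mock call was lost, with adjusted p = 0.0698. The B2-1 gene BnaA06G0192500ZS stood at 2.74 to 5.49 TPM in bnagrp3 and 0 to 1.46 in WT, higher by 2.01 (SE 0.32, adjusted p = 0.000368) at 4 h. Within WT at 4 h it stood at 0, 1.46 and 0, so replicate 2, the library with the highest share described above, was the only one above 0. The B2-1 gene with the next identifier, BnaA06G0192600ZS, which has the PCTAIRE description, stood at 0, 1.07 and 0 there and was higher in bnagrp3 by 1.41 (SE 0.32, adjusted p = 0.00564). The Cyclin-B1-2 gene BnaC02G0023000ZS was higher in bnagrp3 mock by 1.11 (SE 0.26, adjusted p = 0.00711). The part of these WT library differences in the genotype calls was not tested. Without WT NaCl 4 h replicate 2 and WT NaCl 8 h replicate 3, the calls in mock and at 4 h and 8 h stayed within 1.5 times the counts above.

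**Figure D5:**
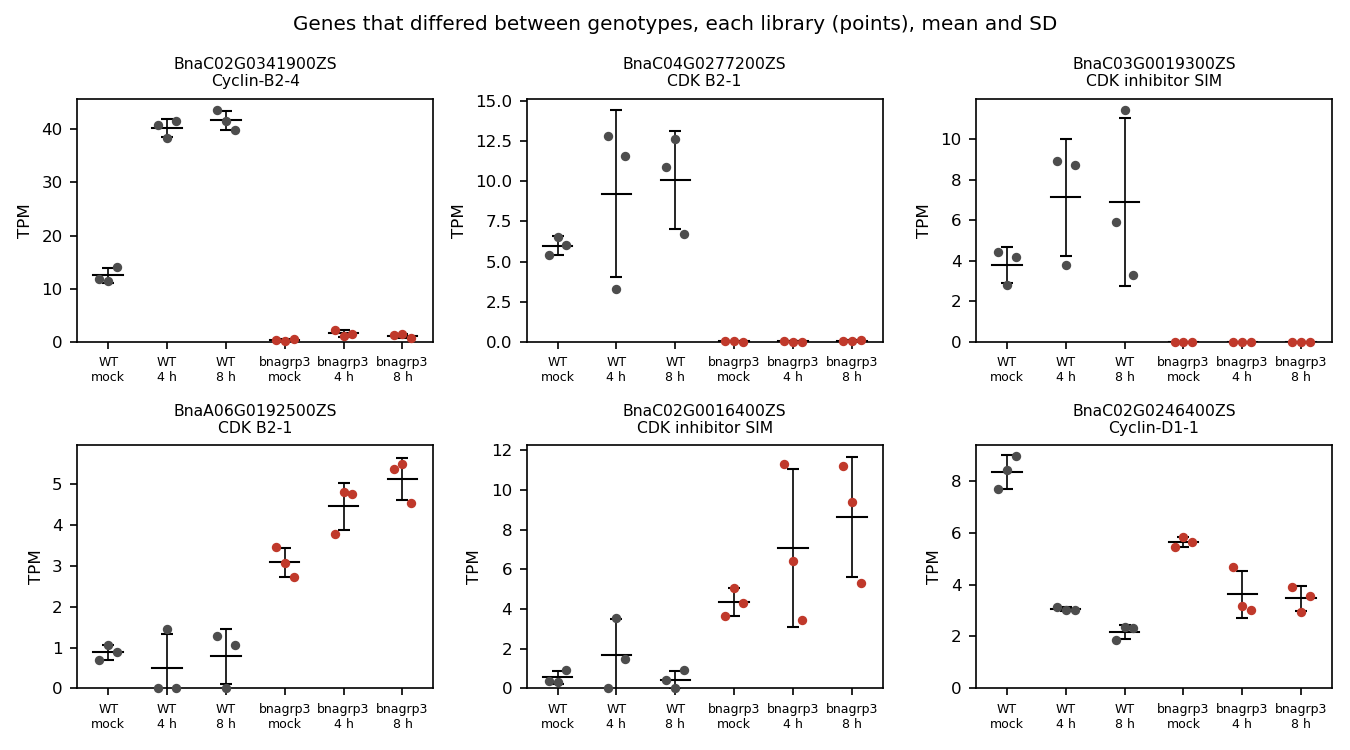
TPM of 6 genes that differed between genotypes or in their response, in each library, 3 points a group, with mean and SD; SD bars that would pass below 0 end at the axis. BnaC04G0277200ZS and BnaC03G0019300ZS are near 0 in all 9 bnagrp3 libraries. BnaC02G0341900ZS is below its WT level in bnagrp3 and rises with salt there, BnaA06G0192500ZS and BnaC02G0016400ZS are higher in bnagrp3, and BnaC02G0246400ZS falls less with salt in bnagrp3.

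The salt response itself differed between genotypes for few genes. The difference of the 4 h response was called for 2 of the 175 genes and that of the 8 h response for 1, beside 2.46% and 1.38% of all genes tested. Of all genes, 1.14% had a higher and 1.32% a lower 4 h response in bnagrp3, and 0.782% a higher and 0.599% a lower 8 h response. The 3 genes are BnaC01G0016400ZS, BnaC04G0327200ZS and BnaC02G0246400ZS, described above.

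Other cell-cycle genes, matched by product name without the 240, give the setting. Over all genes tested, 26.0%, 29.0%, 28.7% and 31.3% were higher in the same order, and 20.5%, 17.3%, 23.5% and 18.4% were lower. Of 78 tested genes of DNA replication, 45, 50, 53 and 52 were lower and 3, 3, 2 and 4 higher, with median log2 changes of -0.59, -0.74, -0.80 and -0.79. The gene for the large subunit of ribonucleotide reductase BnaA08G0196200ZS, which makes DNA precursors, went from 8.49 ± 0.953 TPM (SD, n = 3) in WT mock to 2.24 ± 0.150 at 4 h, a change of -1.55. Of 208 tested genes of mitosis and cytokinesis, 59, 103, 87 and 96 were lower and 29, 33, 28 and 33 higher, with BnaC03G0141500ZS, a 65-kDa microtubule-associated protein, at 9.97 ± 0.990 and 1.73 ± 0.745 TPM, a change of -2.04. Other CDKs had more higher than lower genes, with 17, 23, 19 and 22 of 41 higher and 6, 3, 5 and 3 lower, although the largest WT 4 h change was a fall, of the CDKF-4 gene BnaC02G0401100ZS by 1.08.

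The other lists held changes in both directions, as did all genes tested, whose shares are 26.0%, 29.0%, 28.7% and 31.3% higher and 20.5%, 17.3%, 23.5% and 18.4% lower. Among 50 other cyclins 14, 13, 16 and 15 were higher and 10, 12, 9 and 9 lower, and the Cyclin-U4-1 gene BnaA04G0283000ZS fell from 10.5 ± 0.916 to 2.12 ± 0.386 TPM in WT at 4 h. Among 25 E2F and retinoblastoma-related genes 6, 5, 5 and 5 were higher and 4, 5, 5 and 7 lower, and the retinoblastoma-related gene BnaA01G0368500ZS rose from 3.47 ± 0.195 to 7.78 ± 1.26 TPM. Among 17 MYB3R genes, which regulate transcription of mitotic genes, 6, 4, 7 and 3 were higher and 1, 2, 1 and 2 lower, and BnaA01G0383000ZS rose from 1.24 ± 0.130 to 3.02 ± 0.761 TPM. Among 63 genes of the anaphase-promoting complex and checkpoint 5, 9, 9 and 12 were higher and 8, 15, 16 and 15 lower, and the subunit 10 gene BnaA06G0312800ZS fell from 8.18 ± 0.969 to 2.19 ± 0.717 TPM.

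Summed levels of shoot meristem markers were below those of the young proliferating leaf and stomatal lineage lists, which hold more genes. The all-gene shares given for the other lists apply to the counts here too. Of 37 shoot meristem genes, 8 were tested, 6 were listed at 0 in every library and 4 of 6 WUSCHEL genes were among them, and the summed level was 26.6 to 27.3 TPM in WT mock and 14.8 to 20.7 TPM at 4 h. At 8 h it was 18.8 to 28.4 TPM, overlapping mock, and in bnagrp3 it was 24.4 to 25.1 TPM in mock, 19.8 to 24.9 at 4 h and 27.0 to 30.8 at 8 h, the last above its mock range. Lower and higher calls were 3 and 0 at 4 h in WT, 1 and 0 at 8 h, 1 and 0 in bnagrp3 at 4 h and 0 and 1 at 8 h. Of 44 growth-regulating factor and cofactor genes of young proliferating leaves, 21 were tested, with 7, 5, 8 and 4 lower and 3, 3, 1 and 2 higher. Their summed level was 59.2 to 66.1 TPM in WT mock, 62.7 to 68.0 after 4 h and 64.7 to 77.7 after 8 h, and 61.2 to 67.6, 53.6 to 58.0 and 56.0 to 62.6 TPM in bnagrp3. Root genes were mostly listed at 0, with 30 of 44 listed at 0 in every library and 14 of 14 genes for Casparian strip membrane proteins 2, 3 and 5 among them. All 3 SCARECROW and 6 SHORT-ROOT genes were above 0 in some library, up to 10.7 and 9.2 TPM, as were single or few copies of Casparian strip membrane proteins 1 and 6 and of PLT1 and PLT2, up to 0.15 TPM. For WT the summed root level was 35.3 to 42.1 TPM in mock, 27.7 to 35.02 TPM after 4 h and 27.5 to 30.9 TPM after 8 h, and 46.6 to 48.1, 33.9 to 34.3 and 39.2 to 40.6 TPM in bnagrp3. Of 60 genes in the stomatal lineage list 35 were tested, with 4, 7, 6 and 8 lower and 3, 1, 4 and 4 higher. The name match also took genes for EPIDERMAL PATTERNING FACTOR-like proteins 1 to 9, whose expression in that lineage was not checked. A gene for protein 9 had the highest value of the list, 33.4 TPM. The summed level of the 60 genes was 116 to 131 TPM in WT mock, 91.9 to 94.5 after 4 h and 81.63 to 98.02 after 8 h, and 111 to 121, 90.3 to 112 and 92.6 to 94.1 TPM in bnagrp3. The part of these marker changes in the results was not tested.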

How the data were processed

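RNA from 18 Brassica napus libraries was analysed from 1 deposited table that pairs each gene with its TPM in every library and with Swiss-Prot, KEGG and KOG annotation. The authors deposited the values as TPM per the file headers, and library sums lay between 999998 and 1000002. Tools listed in the submitters' processing notes are HISAT2, fastp and featureCounts, with no version. Which genome build, annotation and strand setting served, and how reads shared by homeologs were handled, is not stated there. TPM keeps no read depth, so no counting interval is given.

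Members were taken by Swiss-Prot name. The members and the lists were chosen with earlier results of these data known. Libraries were grouped by their titles, with the columns headed 0 h taken as mock. Values were tested as log2(TPM + 1) with limma 3.58.1 in R 4.3.3, on the 57923 genes at 1 TPM or more in at least 3 libraries, with a group-means model over all 18 libraries, a mean-variance trend and Benjamini-Hochberg adjustment over all those genes, in each of 11 comparisons. Python 3.11.15, pandas 2.3.3 and matplotlib 3.10.9 were used for summaries and plots. Genes were named by rule: the 2 most abundant of each family, up to 2 largest called rises and falls of each family in each salt comparison, and up to 3 of each in the other comparisons, among genes with a mean of at least 2 TPM in a group, and for each other list the called gene with the largest WT 4 h change. Genes named for identical values or annotation were chosen after their values were seen. Tested on simulated data for the WT 4 h comparison with 57923 genes, the fit called 60% of 100 genes changed by 1 and 90% of 100 genes changed by 2 on the log2 scale. Alternatives were median-of-ratios scaling, a pseudocount of 0.1, a replicate block, a 5 TPM filter, all genes unfiltered, a fit of only the groups compared, and each library left out in turn. Leaving out 2 WT libraries together, leaving out the POMP genes and splitting by KOG description were added after the data were seen. No sequences were used here.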

Additional observations from a re-analysis of the deposited data

Results flagged for a closer look

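The salt response differed between the genotypes, by the test of the difference itself, for 3 of the 175 tested genes. The 4 h response of the Cyclin-B1-1 gene BnaC01G0016400ZS was lower in bnagrp3 by a log2 difference of -1.41 (adjusted p = 0.0496, limma), and that of the CDKB1-1 gene BnaC04G0327200ZS by -0.74 (adjusted p = 0.0455). The 8 h response of the Cyclin-D1-1 gene BnaC02G0246400ZS differed by 0.98 (adjusted p = 0.013), with a smaller fall in bnagrp3. In the alternatives run, the first lost its call in 19 and the second in 18, while the third kept its call wherever it had a value. Groups of 3 libraries are too small for the check of single libraries far from the rest.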

How the results depend on the processing

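Of 106 tested values of named genes, 91 kept their direction and call in every alternative that gave them a value, 15 lost the call in at least 1 and none reversed. The 5 TPM filter left 64 of the 240 genes in the test and 65 of the 106 values. It gave 14 higher and 12 lower genes in WT at 4 h, 12 higher and 22 lower in WT at 8 h, 19 higher and 16 lower in bnagrp3 at 4 h and 18 higher and 20 lower at 8 h, 11 and 7 called between 4 h and 8 h in WT and bnagrp3, 17, 17 and 18 between genotypes in mock, at 4 h and at 8 h, and 0 and 2 for the response differences at 4 h and 8 h; fewer genes were tested. The difference of the 4 h response was called for 0 genes with a pseudocount of 0.1 and 0 without a filter. A fit of only the groups compared called 8 genes between 4 h and 8 h in WT, 19 between genotypes at 4 h, and 1 and 3 for the response differences at 4 h and 8 h, and it called 1 D-type gene higher in each bnagrp3 salt comparison. Without both WT libraries of highest share, those differences were called for 5 and 2 genes. The cause of these moves was not tested.

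Leaving out each library in turn gave 20 to 28 higher and 35 to 44 lower genes in WT at 4 h, 12 to 16 and 49 to 61 at 8 h, 27 to 33 and 48 to 55 in bnagrp3 at 4 h and 20 to 29 and 54 to 61 at 8 h. Between times it gave 22 to 31 in WT and 14 to 21 in bnagrp3. Between genotypes it gave 21 to 33 in mock, 24 to 46 at 4 h (24 without WT NaCl 4 h replicate 1) and 25 to 31 at 8 h, and 0 to 4 and 1 to 2 for the response differences at 4 h and 8 h, with 4 without WT NaCl 4 h replicate 2.

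Replicate numbers did not pair the libraries. Of 45 same-numbered pairs the correlation of deviations from group means was -0.43 to 0.07, none was above 0.1, and 8 of 18 libraries correlated best with their own number. With a replicate block the difference of the 4 h response was called for 0 genes, and no other count moved by more than 1.5 times. TPM keeps no depth, so the precision of low values is unknown.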
